A study of Mus musculus with 4 samples.

Results

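The NF-κB and IκB family was described across 4 lines of L1210, a mouse lymphocytic leukemia cell line (DBA subline 212). All probes of the array whose gene symbol was Nfkb1, Nfkb2, Rel, Rela, Relb, Nfkbia, Nfkbib, Nfkbie, Nfkbiz or Bcl3 were taken, which gave 15 of 55681 probes and 10 of 24561 gene symbols. Of the 10 genes, 7 had a single probe, and the others had 2 (Nfkb1) or 3 (Relb and Nfkbib). Each line was a pool of GFP+ cells sorted after viral infection and stably carrying a control vector (L1210-control) or a splice variant of Fbxw11, namely the full-length Fbxw11a, Fbxw11c, which lacks an early exon, or Fbxw11d, which lacks that exon and its neighbour. RNA of each line was hybridised to 1 array, so the differences below carry no replicate error and were not tested. The 3 variant lines were all compared with the same single control array, so an error of that array enters all 3 comparisons alike.

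NF-κB is a dimer of Rel proteins that is held inactive in the cytoplasm by an IκB inhibitor. In the canonical pathway, IκB kinase phosphorylates the inhibitor, an SCF ubiquitin ligase that carries Fbxw11 or its relative Btrc recognises the phosphorylated form, and the proteasome destroys it, which frees the dimer to enter the nucleus. Several genes of the family, Nfkbia above all, are themselves transcribed under NF-κB, so that the pathway rebuilds its own brake. The arrays measured RNA and not the amount, phosphorylation or location of any of these proteins.

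Promoter windows, each running from 250 bases before to 50 bases after a transcription start, were found in RefSeq (GRCm38.p6) for 7 of the 10 genes. The κB consensus, the 10-base motif bound by NF-κB dimers, was searched on both strands, and overlapping matches were merged into a single site. It was present in at least 1 window of 5 of these 7 genes (71.4%), against 1388 of 27025 genes with a window (5.14%). Among other genes of the pathway it was present in 7 of 33 (21.2%), and among genes listed as NF-κB targets in 10 of 19 (52.6%). The 120 bases before the start are shown for the 4 family genes that had a match there, because these stretches carry the matches. They are written 5′ to 3′ on the gene's strand, with the matches in capitals.
Nfkbia, chr12:55492648-55492767, minus strand: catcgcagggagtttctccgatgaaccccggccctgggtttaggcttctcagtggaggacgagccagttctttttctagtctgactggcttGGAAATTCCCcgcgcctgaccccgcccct
Nfkbie, chr17:45555580-45555699, plus strand: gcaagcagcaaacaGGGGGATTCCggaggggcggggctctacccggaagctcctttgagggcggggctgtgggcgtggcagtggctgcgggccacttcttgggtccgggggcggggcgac
Nfkb2, first start, chr19:46304617-46304736, plus strand: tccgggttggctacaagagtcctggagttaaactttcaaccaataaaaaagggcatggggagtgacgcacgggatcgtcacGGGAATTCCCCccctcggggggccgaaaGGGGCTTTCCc
Rel, chr11:23770970-23771089, minus strand: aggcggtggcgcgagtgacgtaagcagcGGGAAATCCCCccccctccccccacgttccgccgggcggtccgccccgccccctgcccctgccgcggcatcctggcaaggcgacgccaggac

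The Nfkbia match lay at positions -29 to -20 from the start and read as the consensus on the opposite strand. Nfkbie had its match at positions -106 to -97. The first start of Nfkb2 had 2 sites, at -39 to -29 and at -11 to -2. Of its other starts, the second had sites at -236 to -227 and at 11 to 20, and the third had a site at -225 to -216, which is the same stretch of genome as the latter. In Bcl3 the site, GGGAAGTCCC, lay at positions 3 to 12, just past the start. The windows of Rela and Nfkbib held no match, which says only that these letters were not in these windows. Neither binding of a factor nor promoter activity was measured.

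**Figure D1:**
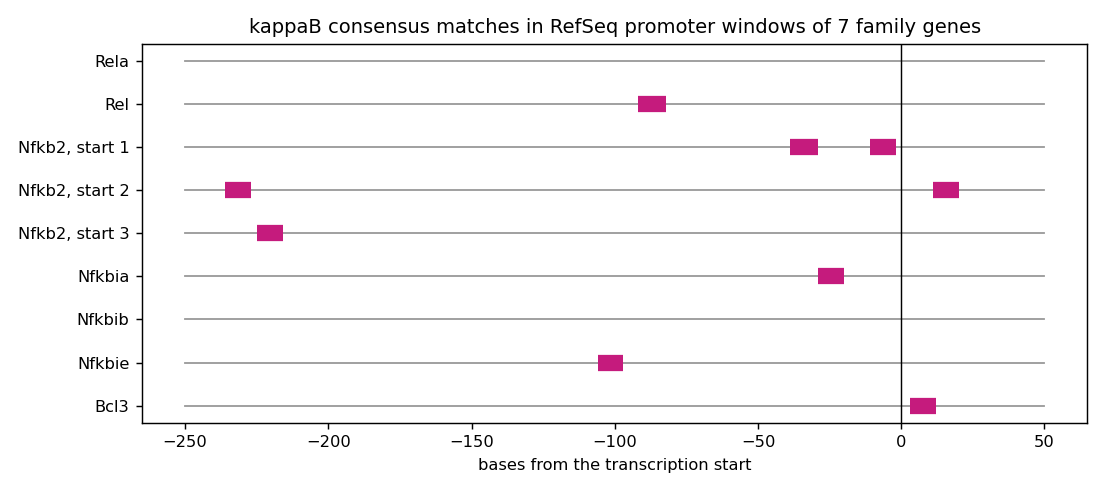
κB consensus matches (bars) in the RefSeq promoter windows of 7 family genes, drawn by distance in bases from the transcription start (vertical line at 0, windows from 250 bases before to 50 bases after); Nfkb2 has 3 annotated starts. Rela and Nfkbib have no bar, and the sites of Nfkbia and of the first Nfkb2 start lie just before the start.

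Of the 10 genes 9, on 14 of the 15 probes, were well above background on all 4 arrays; Rel was not. For these 9 genes the signal was highest in the control in 9 of 9, whereas over all 16249 genes measured on the 4 arrays the control was the highest array for 20.9%. The family was chosen with earlier results of these data known, so shares of all genes are no independent background for it. On single probes the control was highest in 13 of 14. In bulk RNA of a sorted pool, less RNA per cell and fewer cells that express a gene cannot be told apart. The median log2 ratio of the measured members to L1210-control was -0.73 in the Fbxw11a line (9 genes, from -1.06 to -0.07). It was -0.46 in the Fbxw11c line (9 genes, from -0.81 to -0.09). In the Fbxw11d line it was -0.43 (10 genes with Rel, from -0.73 to 0.05). The value of Rel, 0.05, is a bound that could only come out positive, and it lies within the scanner's error of 0.46. The medians over all genes compared were 0.01, 0.02 and 0.04. The differences were small: 1 member, Nfkbia in the Fbxw11a line, was lower by 2-fold or more, and none was higher by that much in any line. Among all genes, 2.06% were lower and 2.46% higher by 2-fold or more in the Fbxw11a line, 2.29% and 1.63% in the Fbxw11c line, and 4.96% and 1.11% in the Fbxw11d line. At 1.5-fold, 6 of 9 members were lower in the Fbxw11a line, 4 of 9 in the Fbxw11c line and 3 of 10 in the Fbxw11d line, and none was higher. The shares of all genes lower by 1.5-fold or more were 4.89%, 5.49% and 10.4% in this order, and the shares higher were 6.05%, 4.49% and 5.15%.

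The scanner's own error of a signal was about 10% of it, which gave each log2 ratio of the 9 genes an error of 0.204 to 0.206. In L1210-Fbxw11a and in the Fbxw11c line, 7 of the 9 differences from the control were over 2 such errors (all but Nfkb1 and Rela), and in the Fbxw11d line 5 of 9 were (Nfkb1, Nfkbia, Nfkbie, Nfkbiz and Bcl3). These counts rest on each gene's brightest probe. The second Nfkb1 probe had a log2 ratio of -0.19 in the Fbxw11d line, within its error of 0.205. The dimmest Relb probe was within its error in every variant line. Of the 16249 genes measured on the 4 arrays, 5.03%, 5.51% and 11.4% were lower than the control by over 2 errors in these lines. Probes printed on 10 spots of the array varied less, with a median SD between spots of 0.05 to 0.10 on the log2 scale at signals of 256 and more. Both errors cover the array and not the culture or the sorted pool, and the number of arrays limits the precision.

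The direction in the Fbxw11d line depended on how its array was scaled. That array was the brightest, with a 75th percentile of 954 against 620 to 672 on the others, and was on a slide of its own, so slide and line cannot be told apart. Its E1A probes, which read control RNA added as a spike-in and not RNA of the cells, stood 0.58 below the control on the log2 scale after scaling to the 75th percentile, against 0.11 and 0.16 above it for L1210-Fbxw11a and L1210-Fbxw11c. Scaled on the spike-ins instead, a choice made after seeing the data, the members' median in the Fbxw11d line was 0.16 with 3 of 10 below 0, the control was the highest array for 3 of 9, and the median of all genes was 0.62. Relative to the median of all genes, the members' median was -0.47 with the main scaling; since another scaling factor moves all genes of an array alike, this gap is no check of the scaling. In L1210-Fbxw11a and L1210-Fbxw11c all 9 were below 0 under either scaling.

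**Figure D2:**
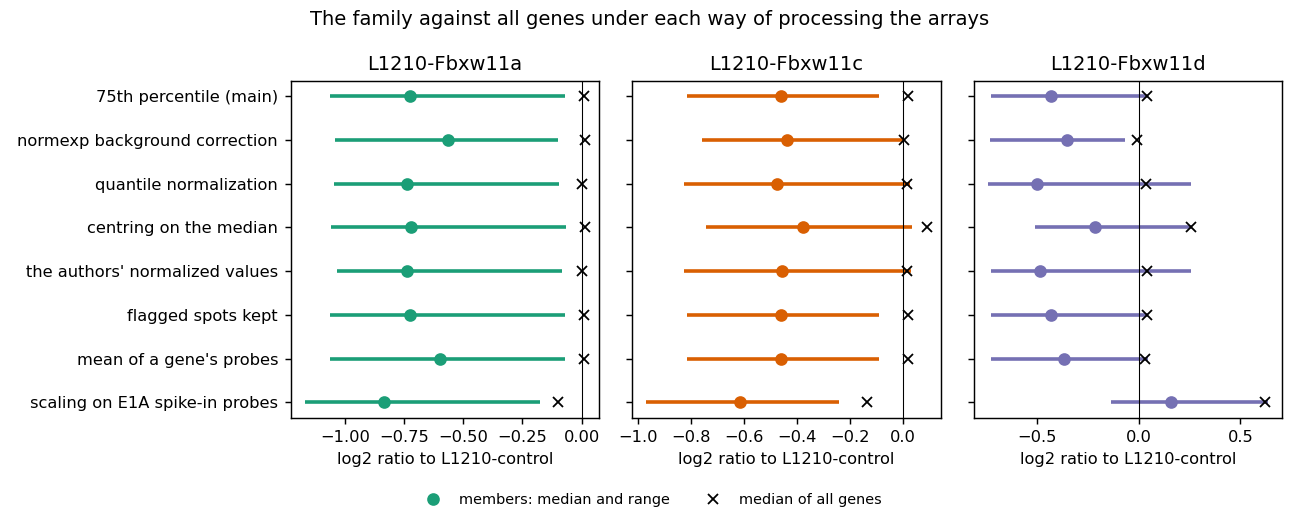
Median (circles) and range (lines) of the members' log2 ratios to L1210-control, and the median of all genes (crosses), for each variant line under 8 ways of processing the arrays; the range in the Fbxw11d line includes Rel where it could be compared. The circles lie left of the crosses in every panel, a placement that a new scaling factor cannot change, while scaling on spike-ins moves both to the right of 0 in the Fbxw11d line.

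Signals are given below on the scale of the control array, with the scanner's error of that signal, and levels are compared between lines and not between probes. Among the subunits, RelA (p65) carries the transactivation domain of the most common dimer. Its probe read 21966 ± 2197 in the control, 20931 ± 2093 in the Fbxw11a line, 20666 ± 2067 in the Fbxw11c line and 18522 ± 1852 in the Fbxw11d line. The 4 values of Rela lay within 1.19-fold, and in the Fbxw11a line and L1210-Fbxw11c the distance from the control was less than the error. Nfkb1 encodes p105, an IκB-like precursor of the p50 subunit. The brighter of its probes read 677 ± 67.8, 527 ± 52.8, 567 ± 56.8 and 460 ± 46.1 in the order control, Fbxw11a, Fbxw11c and Fbxw11d, so that the control was highest and L1210-Fbxw11d lowest. Its second probe, further toward the end of the transcript and printed on 2 spots, read 456, 342, 359 and 398, again highest in the control but with L1210-Fbxw11a lowest. The order of the variant lines for Nfkb1 therefore depended on the probe.

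Relb and Nfkb2, which encode the subunits of the dimer of the noncanonical pathway, differed more from the control than Rela and Nfkb1 in the Fbxw11a and Fbxw11c lines, while in the Fbxw11d line Nfkb1 differed more than either on its brighter probe and less on its second. Relb read 3026 ± 303 in the control, 1720 ± 172 in the Fbxw11a line, 1858 ± 186 in the Fbxw11c line and 2361 ± 236 in the Fbxw11d line. It was 1.76-fold lower in the Fbxw11a line, 1.63-fold in the Fbxw11c line and 1.28-fold in the Fbxw11d line. A second Relb probe shares a few bases with the first (chr7:20191773-20191832 and chr7:20191722-20191781, mm9) and read 1851, 1122, 1199 and 1368, in the same order. The remaining Relb probe, designed on another transcript model and placed at chr7:20203058-20203117, read 466, 465, 439 and 521. It was the exception among the 14 probes, with L1210-Fbxw11d highest and all 4 values within 1.19-fold of each other. Which transcripts of Relb each line held was not tested.

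Nfkb2 encodes p100, which restrains RelB and is processed to p52. Its single probe crosses an exon junction (the 60 bases align to chr19:46386146-46386285, mm9, a span of 140 bases) and so reads spliced RNA. Its sequence, shown because the gene rests on this probe alone, is given without capitals.
Nfkb2 probe: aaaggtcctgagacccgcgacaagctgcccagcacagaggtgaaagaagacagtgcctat
It read 4435 ± 444 in the control, 2933 ± 293 in the Fbxw11a line, 2862 ± 286 in the Fbxw11c line and 3452 ± 345 in the Fbxw11d line. Nfkb2 was 1.51-fold, 1.55-fold and 1.28-fold lower than the control in these lines, and L1210-Fbxw11a and L1210-Fbxw11c were within the error of each other. Rel (c-Rel), a subunit of lymphoid cells in particular, read 14.2 ± 3.99, 12.5 ± 3.17, 17.6 ± 3.54 and 18.7 ± 2.80, and was well above background on the arrays of L1210-Fbxw11c and L1210-Fbxw11d alone. Its bound was 18.1, the lowest control signal of a probe with all spots well above background. Against it, Rel was 1.03-fold higher in the Fbxw11d line. No fold was given for L1210-Fbxw11c, whose signal lay below 18.1, so such a value could only come out positive. The log2 value of 0.05 was within the scanner's error of the ratio, 0.46. It was 0.26 with quantile normalization and 0.64 with scaling on spike-ins. The direction of Rel was therefore not resolved. The coordinates listed for the Rel probe cover 15 of its 60 bases (chr11:23641729-23641743, mm9).

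**Figure D3:**
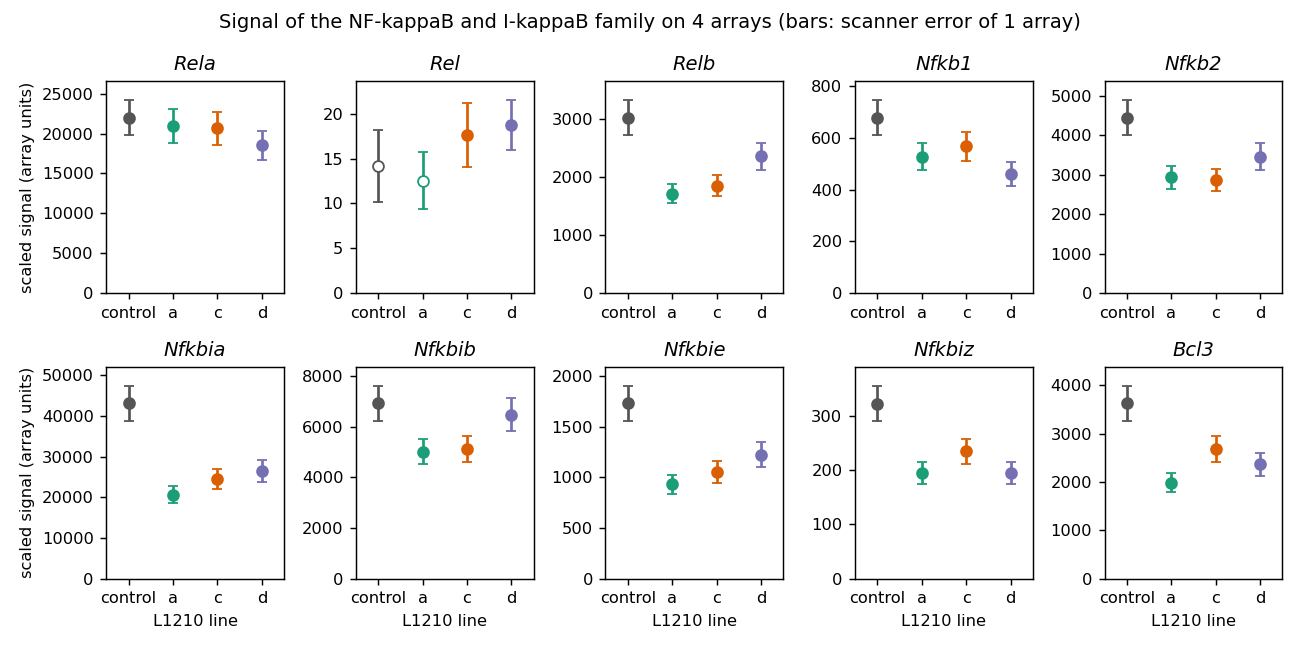
Signal of each family gene on the 4 arrays, scaled to the L1210-control array, in array units from 0; bars are the scanner's error of the single array, and open circles mark Rel where its probe was not well above background. The grey control point is the highest in every panel except that of Rel, and in those of Rela, Nfkb1 and Nfkbib its bar overlaps with that of a variant line.

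Nfkbia, which encodes IκBα, the inhibitor that NF-κB itself induces, had the largest difference of the family in the Fbxw11a line and L1210-Fbxw11c. Its probe crosses the junction of exons in the coding part (chr12:56590945-56591440, mm9, a span of 496 bases).
Nfkbia probe: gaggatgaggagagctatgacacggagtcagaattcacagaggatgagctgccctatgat
It read 43025 ± 4302 in the control, 20610 ± 2061 in the Fbxw11a line, 24464 ± 2446 in the Fbxw11c line and 26422 ± 2642 in the Fbxw11d line. These were 2.09-fold, 1.76-fold and 1.63-fold below the control, and the control lay apart from all 3 variant lines by more than 2 errors. None of the spots was saturated. On the scale of the spike-ins the log2 ratio of Nfkbia in the Fbxw11d line was -0.11, less than the scanner's error, so that the separation from the control in that line was lost.

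Nfkbie encodes IκBε, another inducible inhibitor. It read 1729 ± 173, 932 ± 93.2, 1053 ± 105 and 1223 ± 122 in the order control, Fbxw11a, Fbxw11c and Fbxw11d, which put it 1.86-fold, 1.64-fold and 1.41-fold below the control. Nfkbib encodes IκBβ, which turns over more slowly and is less dependent on NF-κB. Its brightest probe read 6916 ± 692, 5021 ± 502, 5110 ± 511 and 6480 ± 648. It was 1.38-fold and 1.35-fold lower in the Fbxw11a line and L1210-Fbxw11c, and in the Fbxw11d line it differed by less than the error. The other Nfkbib probes read 1509, 1135, 1131 and 1208, and 87.5, 66.8, 64.5 and 83.1. All 3 probes were highest in the control and had log2 ratios between -0.46 and -0.39 in the Fbxw11a line, while in the Fbxw11d line they ranged from -0.32 to -0.07.

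Nfkbiz and Bcl3 encode the atypical nuclear IκB proteins, which bind p50 or p52 dimers at chromatin and can activate transcription. Nfkbiz read 322 ± 32.4 in the control, 195 ± 19.7 in the Fbxw11a line, 234 ± 23.6 in the Fbxw11c line and 195 ± 19.6 in the Fbxw11d line, or 1.65-fold, 1.38-fold and 1.66-fold lower than the control. Bcl3 read 3626 ± 363, 1991 ± 199, 2686 ± 269 and 2367 ± 237, and was 1.82-fold, 1.35-fold and 1.53-fold lower.

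**Figure D4:**
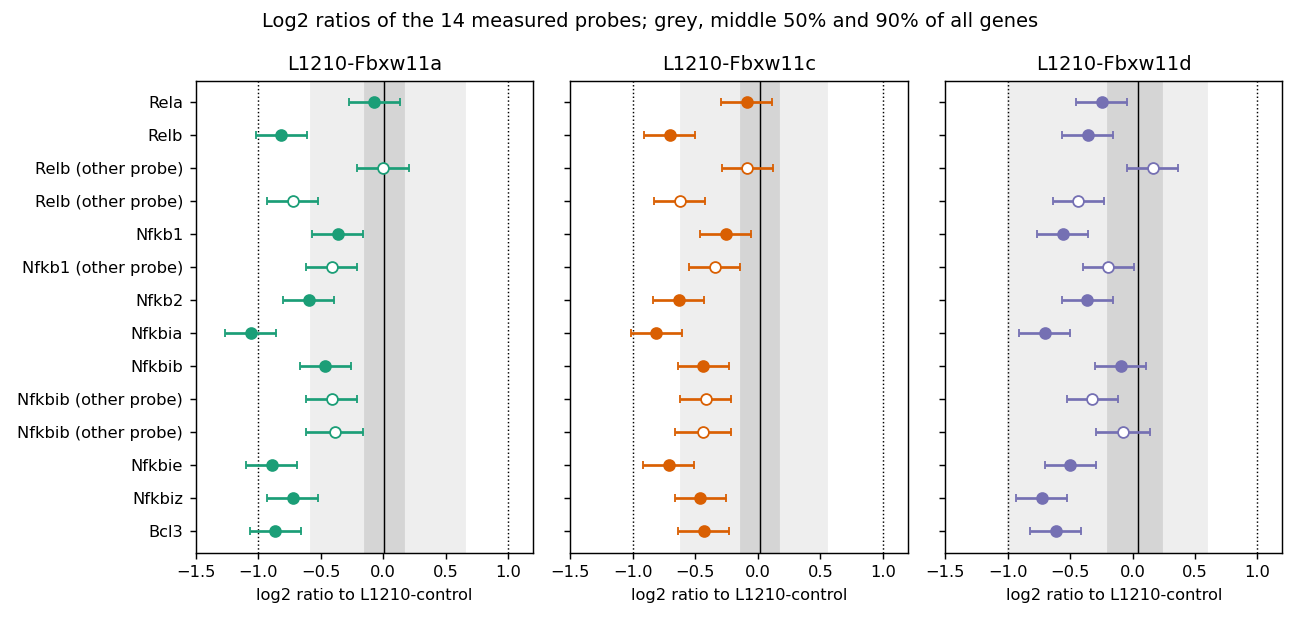
Log2 ratio to L1210-control of the 14 measured probes in each variant line (filled, probe used for the gene; open, other probes of it; bars, scanner error of the ratio), over the middle 90% and 50% of all genes (light and dark grey), with the median of all genes as a line and 2-fold dotted. Most points lie left of the line, Rela and 1 of the Relb probes lie nearest to it for the Fbxw11a and Fbxw11c lines, and the light band is wider on the low side in the Fbxw11d line.

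The variant lines were also compared with each other, which does not involve the control array. The members were higher in the Fbxw11c line than in the Fbxw11a line in 7 of 9 (median log2 difference 0.11), higher in the Fbxw11d line than in the Fbxw11a line in 6 of 9 (median 0.25), and higher in the Fbxw11d line than in the Fbxw11c line in 5 of 9 (median 0.11). Among all 16249 genes these shares were 53%, 52.6% and 52%, with medians of 0.01, 0.02 and 0.01. No member differed by 2-fold between variant lines. Differences over the scanner's error were found for 3, 6 and 6 of 9 members in these comparisons, against 32.9%, 50.6% and 43% of all genes. Over 2 errors were found for Bcl3, higher by 0.43 in the Fbxw11c line than in the Fbxw11a line, and for Relb, higher by 0.46 in the Fbxw11d line than in the Fbxw11a line. That is 1, 1 and 0 of 9 members, against 11.4%, 21.3% and 15.5% of all genes over 2 errors in the same comparisons. The differences that involve L1210-Fbxw11d move with the scaling of its array as above.

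The rest of the pathway was read from a list of 43 genes, all of which were on the array. Its median log2 ratio was -0.02 in the Fbxw11a line, 0.01 in the Fbxw11c line and 0.09 in the Fbxw11d line, near that of all genes. None was higher by 2-fold or more in any line. In the Fbxw11a line 0 of 43 were lower by as much and in the Fbxw11c line 2 of 43, against 2.06% and 2.29% of all genes. The 2 are named here for their values: Ikbke, an IκB kinase-related kinase, and Birc3, the ubiquitin ligase cIAP2 (log2 ratios -1.08 and -1.10). Neither passed 2-fold with normexp background correction. Ikbke read 286 in the control, 161 in the Fbxw11a line, 135 in the Fbxw11c line and 146 in the Fbxw11d line, and Birc3 read 245, 133, 114 and 141. Both were thus lower than the control in every variant line. The 25 kinases and adaptors had medians of -0.12, 0.00 and 0.12, and 11 other regulators had medians of 0.06, 0.03 and 0.00. The IκB-like genes outside the family, Nfkbid and Nfkbil1, had medians of -0.07, 0.05 and -0.14. The list of regulators mixes inhibitors such as the deubiquitinases Tnfaip3 and Cyld with Sharpin, Rbck1 and Rnf31, the subunits of the linear ubiquitin ligase that promotes signalling. The 5 ligase genes (Fbxw11, Btrc, Skp1a, Cul1 and Rbx1) ranged from -0.19 to 0.31 over the 3 lines.

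Fbxw11 itself was read by 2 probes, which start at bases 3692 and 3803 of the transcript, a stretch that an introduced coding sequence need not carry, and so they are no check of the labels. They read 9730, 11244, 11327 and 10990, and 13153, 16339, 15871 and 13383, in the order control, Fbxw11a, Fbxw11c and Fbxw11d.

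A list of 26 textbook NF-κB targets, 4 of them also in the pathway list, had 25 genes on the array, of which 19 could be compared. The list was chosen with earlier results of these data known, so the shares of all genes are no independent background for it. By 2-fold or more, 6, 7 and 7 of the 19 were lower in the Fbxw11a, Fbxw11c and Fbxw11d lines and none was higher, with medians of -0.84, -0.60 and -0.78, against 2.06%, 2.29% and 4.96% lower among all genes. Of these, 5 were lower by 2-fold or more in all 3 lines. Cxcl1, a neutrophil chemokine, read 11997 in the control, 793 in the Fbxw11a line, 1175 in the Fbxw11c line and 1181 in the Fbxw11d line, and was 15.1-fold, 10.2-fold and 10.2-fold lower. The related chemokine Cxcl2 read 578, 41.5, 50.4 and 46.6, or 13.9-fold, 11.5-fold and 12.4-fold lower. Nos2, the inducible nitric oxide synthase, read 2738, 640, 669 and 579, which was 4.28-fold, 4.09-fold and 4.73-fold lower. These were far larger differences than any within the family. Il6 read 104, 14.1, 9.14 and 14.5 and was 7.38-fold, at least 6.98-fold and 7.17-fold lower; neither of its spots was well above background in the Fbxw11c line, and 1 of 2 was in the Fbxw11a line. Csf2 (GM-CSF) read 74.9, 10.2, 22.7 and 18.5, or at least 5.21-fold, 3.30-fold and 4.04-fold lower, and was not well above background in the Fbxw11a line. Other targets did not follow: Sod2 had log2 ratios of 0.19, 0.12 and 0.14, Ccnd1 (cyclin D1) of 0.28, 0.16 and 0.44, and Tnfaip3 of -0.10, 0.03 and -0.07.

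**Figure D5:**
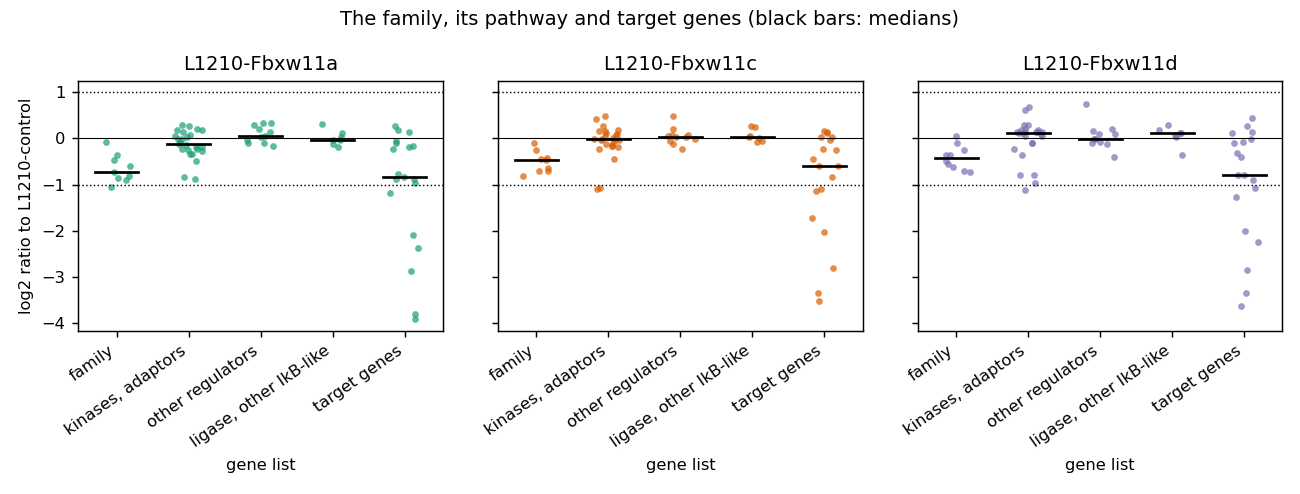
Log2 ratio to L1210-control of each gene (points, spread sideways for visibility) in 5 lists for each variant line, with the median of a list as a black bar and 2-fold as dotted lines. The family's median lies between those of the pathway lists, near 0, and the target genes, which reach -3.92.

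Nfkbia had the widest range of the measured members over the 4 arrays, 1.06 on the log2 scale. The genes whose 3 log2 ratios were nearest to its own, among 16249 measured genes, were Ttc39c, Gm13011, Frmd3, Rab32 and Gja10, with Euclidean distances of 0.18 to 0.21. Ttc39c read 2140 in the control, 1152 in the Fbxw11a line, 1196 in the Fbxw11c line and 1263 in the Fbxw11d line, and Rab32, a small GTPase, read 965, 505, 505 and 557. No member was among these genes.

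The probes of Relb and Bcl3 bound a stretch of chromosome 7 (chr7:20191722-20393885, mm9), which was looked at after the values were seen. The array has 9 other genes between them, among them Clptm1, Tomm40 and the apolipoprotein genes Apoe, Apoc1, Apoc2 and Apoc4. Their median log2 ratios were 0.08, 0.04 and 0.07 in the Fbxw11a, Fbxw11c and Fbxw11d lines, and 4 of 9, 4 of 8 and 3 of 7 were below 0. Of them only Apoc2 in the Fbxw11d line, at -1.18, was lower by 2-fold or more.

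Markers of the labelled cell type and of others were read for all lines, and summed signals are over all genes of a list on the array. Of 3 leukocyte markers, Ptprc (CD45) and Coro1a were well above background on all 4 arrays. The summed signal of the leukocyte list was 1463 in the control and 1275, 1103 and 1196 in the variant lines. Most of it was Coro1a (1417, 1221, 1061 and 1158). The sum was lower in each variant line, as in the family. Ptprc, at dim signals of 42.9, 36.1, 29.7 and 31.8, had log2 ratios of -0.25, -0.53 and -0.43 and Coro1a of -0.21, -0.42 and -0.29, while Laptm5 read 3.69, 17.5, 12.7 and 6.65 and was well above background in the Fbxw11a line alone. Of 7 B lineage markers on the array 4 were, among them Cd79a, Pax5 and Vpreb1, with a summed signal of 173 to 214, and Cd79b, Ebf1 and Igll1 were on none. Of 5 T lineage markers 4 were, with Cd3d on none (summed signal 4377 to 4807), and of 8 macrophage and monocyte markers 5 were, with Lyz2 and Fcgr1 on none (14562 in the control and 11094 to 12312 in the variant lines). In that list Cd68 (log2 ratios -0.37, -0.67 and -0.45) and Cd14 (-0.32, -0.60 and -0.39) were lower in all 3 lines with the main scaling, as in the family. Itgam (-0.13, -0.10 and -0.04) and Csf1r (-0.01, -0.10 and -1.12) were also lower in all 3. Of these values, only that of Csf1r in the Fbxw11d line was larger than the error of the family's ratios, 0.204 to 0.206. The other marker above background on all arrays, Emr1, had log2 ratios of 0.91, -0.44 and 0.91. Of 7 fibroblast and stroma markers 4 were, with Pdgfrb on none. The summed signal of the list was 1234 in the control and 2769, 4113 and 3980 in the variant lines, most of it Col1a2 (888, 2419, 3819 and 3688). The others above background on all arrays were mixed. Their log2 ratios were 0.04, 0.38 and 0.47 for Col1a1, -0.02, -0.55 and -0.70 for Pdgfra, and -0.29, -0.53 and 0.33 for Dcn. The part of these markers in the family's values was not tested.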

How the data were processed

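RNA of 4 L1210 lines was labelled with Cy3 and hybridised to Agilent mouse expression arrays, 1 array per line. The authors deposited each array's scanner output, with the processed signal intensity of every spot and its error (Agilent Feature Extraction 9.1 in the submitters' processing notes, 10.7.1.1 per the file headers), and a table of the same arrays in which the deposited log2 values had been normalized; the steps behind the latter are not given in the sources used here. The table also pairs probes with gene symbols and coordinates, which are those of mm9. The labels name a lentivirus as the vehicle of the variants.

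From the intensities, outlier spots were left out, spots of a probe were averaged, and log2 signals were centred on the 75th percentile of the gene spots of each array. A gene was read from its probe of highest mean level. A gene entered a comparison if at least 0.5 of its probe's spots were well above background on either array; where the other array fell short, its lowest signal among probes with all spots well above background bounded the fold. Differences were called at 2-fold, as in the study's methods, without a test. The 75th percentile lay between 620 and 954, from 62.5 to 68.7% of probes were well above background, 102 to 167 spots per array were left out, and no spot was saturated. The first 3 lines shared slide 1, and L1210-Fbxw11d was on slide 2.

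Alternatives were normexp background correction (offset 50, limma 3.58.1 in R 4.3.3), centring on the median, quantile normalization, the authors' values, outlier spots kept, the mean of a gene's probes, other filters on dim probes, thresholds of 1.5-fold and 3-fold and, chosen after seeing the data, scaling on 7 E1A spike-in probes. Other computations used Python 3.11.15, numpy 2.4.6 and pandas 2.3.3. The members and lists were chosen with earlier results of these data known. Genes named were all probes of the members, listed genes past 2-fold in all 3 variant lines, and the 5 genes nearest to the member of widest range; others are named as chosen after their values were seen. Promoter sequences were RefSeq's, of another build than the probes' coordinates, and both were kept apart. A pathway gene and a marker gene are not reported here.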

Additional observations from a re-analysis of the deposited data

How the results depend on the processing

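Over single members, 195 values were recomputed under another setting. Of these, 174 moved by less than the scanner's error and 21 by more, none of which was a difference past 2-fold that changed sign. The 28 values with outlier spots kept could not move, since no spot of the members was an outlier, and are no check. Averaging a gene's probes likewise could not move the 7 genes with a single probe, so their values and orders there are no check. Of all, 8 changed sign: Rela in L1210-Fbxw11c with normexp (0.01), Nfkbib in L1210-Fbxw11d with centring on the median (0.12), and, with scaling on spike-ins in L1210-Fbxw11d, Nfkb1 (0.03), Nfkb2 (0.23), Rela (0.34), Relb (0.23), Nfkbib (0.50) and Nfkbie (0.09). The control was the highest array for 9 of 9 members with the main scaling, quantile normalization, the authors' values and the mean of a gene's probes, for 8 with normexp and with centring on the median, and for 3 with scaling on spike-ins. In L1210-Fbxw11d centring on the median moved the median of all genes to 0.26 and that of the members to -0.21. Scaling on spike-ins moved the median of all genes to -0.14 and 0.62 in the Fbxw11c and Fbxw11d lines.

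The count of members past 2-fold was 1, 0 and 0 in the Fbxw11a, Fbxw11c and Fbxw11d lines. At 1.5-fold it was 6, 4 and 3, and at 3-fold it was 0 in L1210-Fbxw11a. The other settings left these counts as they were. The count of pathway genes was 0, 2 and 1. It was 2 in L1210-Fbxw11a and 7 in L1210-Fbxw11d at 1.5-fold, and 0 in both L1210-Fbxw11c and L1210-Fbxw11d at 3-fold. With normexp it was 0 in both of these lines. In L1210-Fbxw11d it was 0 with quantile normalization, centring on the median and the authors' values, 2 with a gene's probes averaged and 3 with scaling on spike-ins; the cause was not tested. With 1 array per line no array could be left out and no paired analysis was possible, because the labels carry no replicates. Signals under about 64 carry a spot-to-spot SD of 0.32 to 0.43 on the log2 scale. This limits what can be said of Rel, Il6, Csf2, Ptprc, Laptm5, Emr1, Col1a1, Dcn, Gm13011 and Frmd3, and of Cxcl2 and Gja10 in the variant lines.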
